A study of Mus musculus with 11 samples.

Results

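The 38 genes described here encode the core machinery of autophagy and of mitophagy, its mitochondrial form, and were measured in the RNA of whole mouse hearts. They were picked by gene symbol, and each of the 38 had a row among the 35584 genes of the deposited table of normalised counts and among the 33318 genes of the deposited table of normalised TPM (a level per transcript length, scaled to a fixed sum). The study compared hearts after loss of cardiac macrophages with hearts of mice that lack the phagocytic receptor Mertk or the liver X receptors. All mice were males of 8 to 12 weeks. The Macrophage-depleted group (n = 3 libraries) was of genotype CD169-DTR, in which the diphtheria toxin receptor is tied to CD169, a surface protein of resident macrophages. These mice were given diphtheria toxin at 0.01 µg per g of body weight, in 3 injections a week over 3 weeks, and their macrophages had been depleted for 21 days. The WT group (n = 3) was given the same toxin course as control. The Mertk-KO group (n = 2) lacked Mertk, and the LXR-DKO group (n = 3) lacked both liver X receptors, alpha and beta; whether these mice had toxin is not stated in the labels. CD169-DTR and depletion cannot be told apart in this design, nor genotype and a possible difference in toxin. The labels also do not tie each library to its own mouse, so the p-values measure the spread between libraries, part of which may be technical.

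Autophagy wraps cytoplasm, protein aggregates or organelles in a double membrane, the autophagosome, and delivers it to lysosomes. A kinase complex starts the process, a lipid kinase marks the membrane, and conjugation enzymes then attach ubiquitin-like proteins of the Atg8 family to it, where cargo receptors dock. Heart muscle cells are long-lived and dense in mitochondria, and mitophagy, which removes damaged mitochondria through PINK1 or through receptors on the outer membrane, is well studied there. RNA levels show the supply of these components and not the rate of autophagy, which depends largely on protein modification and turnover.

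The libraries held 10938600 to 20722295 estimated reads. Summed cardiomyocyte markers (6 of 6 detected) lay between 650051 and 792368 normalised counts (estimated reads scaled to a common library size) in every library, far above those of every other cell type measured. The 8 resident macrophage markers summed to 1824 to 1930 in WT, 430 to 1237 in Macrophage-depleted, 1834 to 2082 in Mertk-KO and 1326 to 1625 in LXR-DKO. The liver X receptor genes Nr1h3 and Nr1h2 lay at 25.9 to 29.0 and 85.2 to 99.6 in LXR-DKO against at least 145 and 525 elsewhere, whereas Siglec1, which encodes CD169, remained at 33.8 in Macrophage-depleted 1 and was at 2.12 and 0.719 in the other 2. Mertk had 75.7 and 89.4 in Mertk-KO, 130 to 147 in WT, 75.5 to 125 in Macrophage-depleted and 93.6 to 103 in LXR-DKO, so the values of Mertk-KO and Macrophage-depleted overlapped. A value over the whole gene does not show which exons an allele lacks and so does not check that label. Values over whole hearts mix cell types, so fewer cells of a type and less RNA per cell cannot be told apart. Other marker sums also moved with the groups, and their part in the results below was not tested. The 4 recruited monocyte markers summed to 216 to 281 in Macrophage-depleted and 103 to 144 in WT (Chil3 was at 0 in some library), and the 5 adipocyte markers to 20.1 to 34.1 and 79.7 to 167 (Lep was at 0 in some library). The 5 atrial markers summed to 1675 to 3002 in Mertk-KO, 1612 to 17498 in LXR-DKO and 3465 to 25595 in WT (Bmp10 was at 0 in some library). The 5 endothelial markers summed to 8431 to 9439 in Macrophage-depleted and 9506 to 10609 in WT. The 4 mesothelial markers had 178 to 220 and 48.2 to 165 in the same groups (Msln and Krt19 were at 0 in some library). In LXR-DKO the recruited monocyte markers summed to 76.3 to 90.7. No tested gene of the monocyte, adipocyte, atrial, endothelial or mesothelial lists differed from WT in any group at a limma adjusted p below 0.05. The WT libraries reached 1325 to 4137 for the summed 10 immediate early and handling genes, and those of Mertk-KO 5733 and 8862. Across all genes, the differences from WT followed transcript length in Mertk-KO (Spearman's rho -0.44) and in LXR-DKO (-0.34). In Macrophage-depleted rho had the opposite sign (0.11).

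In WT hearts the genes spanned a 231-fold range of normalised TPM. The Atg8 gene Map1lc3a, which encodes LC3A, had the highest level, at 397 ± 19.2 (SD, n = 3). Next came Pink1, the kinase that flags damaged mitochondria, at 280 ± 6.08, and Sqstm1, which encodes the cargo receptor p62, at 214 ± 38.3. The Atg8 genes Gabarap and Map1lc3b (LC3B) had 183 ± 0.817 and 148 ± 6.31, and Bnip3, a mitophagy receptor, had 113 ± 2.98. These first 6 genes did not overlap with their neighbours in the order.

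Each gene grouped with the conjugation enzymes had a lower RNA level in WT than every Atg8 gene. The lowest Atg8 gene was Gabarapl1, at 53.0 ± 3.09 TPM. Not all genes of the group encode enzymes, since Atg12 is itself a ubiquitin-like protein. Among the 10 conjugation enzymes the highest was Atg4d, a protease of the Atg4 family that trims Atg8 proteins, at 29.98 ± 3.54 TPM. Atg7 and Atg3, the enzymes that activate and carry Atg8 proteins, had 6.33 ± 0.508 and 11.03 ± 0.712. The lowest levels were those of Atg2a and Atg2b, which carry lipids into the growing membrane, at 4.01 ± 0.235 and 3.38 ± 0.156, and of Atg4c at 1.72 ± 0.342. In the full order, 20 of the 37 neighbouring pairs had overlapping WT libraries, for example Ulk1 at 31.7 ± 3.91 and Rb1cc1 at 31.0 ± 2.02, so that their order is not settled at n = 3.

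**Figure D1:**
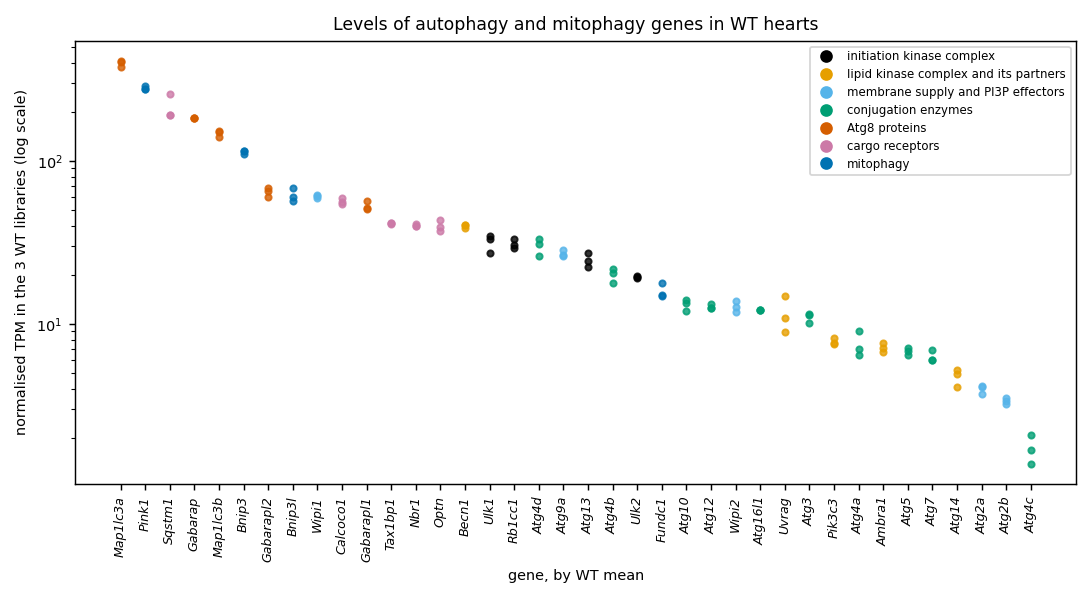
Normalised TPM (log axis) of the 38 genes in the 3 WT libraries, 1 point per library, ordered by the WT mean and coloured by role. Map1lc3a is at the top with a mean of 397 and Atg4c at the bottom with 1.72. Map1lc3a, Pink1, Sqstm1, Gabarap, Map1lc3b and Bnip3 form the upper end. The Atg8 genes Gabarapl2 and Gabarapl1 follow, with Bnip3l, Wipi1 and Calcoco1 between them, and most conjugation enzymes lie in the lower part.

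Within families of related genes, the share of the summed TPM that the leading member took varied. In a pair of genes, 1 of them takes most of the sum by definition. Map1lc3a made up 44.9% to 48.7% of the summed TPM of the 5 Atg8 genes in the WT libraries, and Gabarapl1 and Gabarapl2 had the smallest mean shares, 6.27% and 7.61%. Wipi1, which encodes a reader of the lipid PI3P, took 82.6% of the sum with Wipi2. Ulk1, the kinase that starts autophagy, took 61.8% of the sum with Ulk2, and Bnip3 took 64.7% of the sum with Bnip3l (also known as Nix). Atg2a took 54.25% of the sum with Atg2b. Atg4d took 50.5% of the 4 Atg4 proteases and Atg4c 2.93%. The leading member of each of these families was the same in all 4 groups by mean share.

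Replicates of these genes lay close together. The median SD over the genes was 0.07 on the log2 scale in WT, against 0.11 for all 13884 genes tested, and 0.11 against 0.20 in Mertk-KO. All 38 passed the filter of a mean of 10 normalised counts, with means of 65.3 to 7577, so no member was lost to low values. The set of all genes tested also holds lower ones, which that filter admits. The part of expression level in the smaller spread of the 38, and in their smaller differences below, was not tested.

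**Figure D2:**
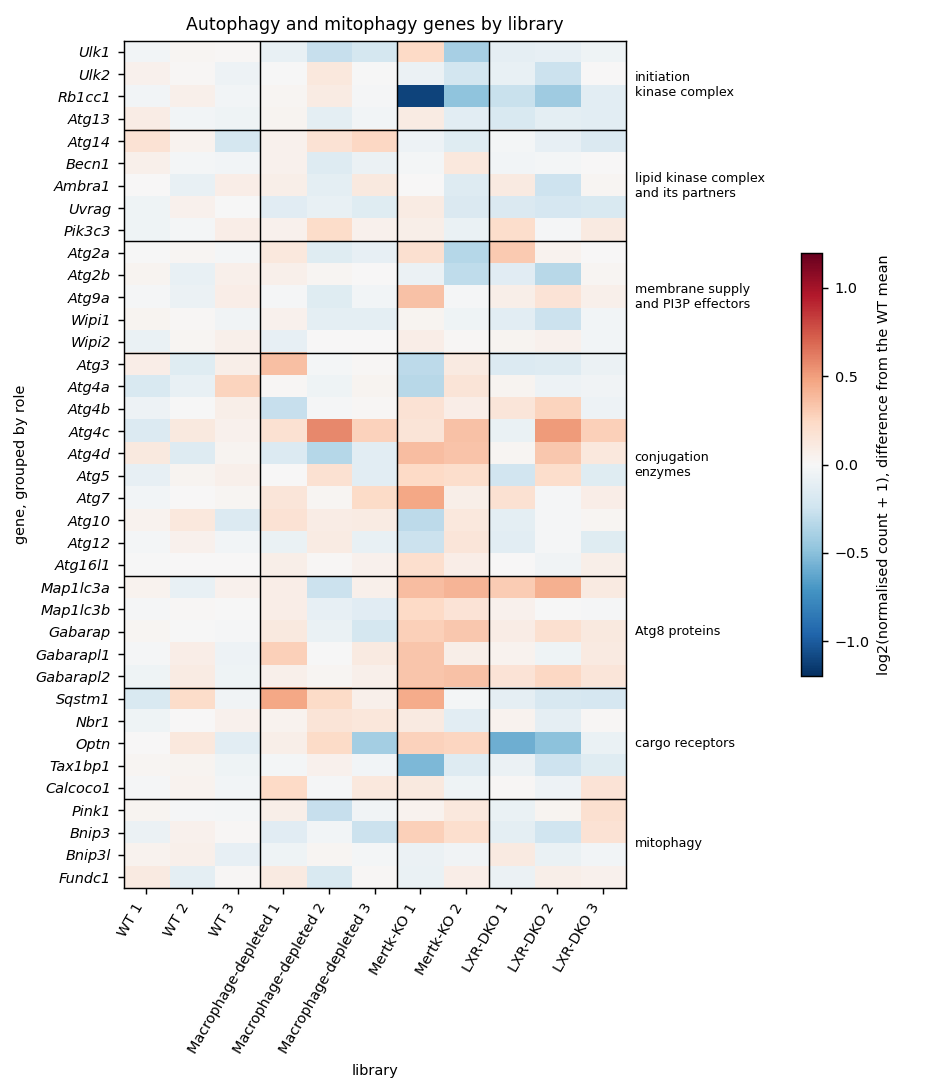
Colour map of log2(normalised count + 1) minus the WT mean for the 38 genes (rows, grouped by role) in the 11 libraries (columns, grouped by condition). Most cells are pale; the darkest blue is Rb1cc1 in Mertk-KO 1, and the rows of the Atg8 genes are red in both Mertk-KO libraries.

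The comparison of Macrophage-depleted with WT asked whether heart autophagy genes respond to loss of macrophages. No gene of the 38 passed the threshold (limma adjusted p below 0.05), where 0.238% of all genes tested did. At an unadjusted limma p below 0.05 the count was 0 of 38, against 1046 of 13884 genes. Voom weights, which weigh each gene's value in each library by its expected spread, gave 0 past the threshold as well. The median absolute difference was 0.06 on the log2 scale for the 38 genes and 0.11 for all genes. The 95% interval of the difference lay within 0.5 on either side of 0 for 36 of the 38 and within 1 for all 38, so changes of 2-fold or more lie outside the interval of each.

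The difference furthest from 0 was that of the protease Atg4c. It was at 49.8, 60.4 and 57.7 normalised counts in the WT libraries and at 63.5, 83.6 and 67.6 in Macrophage-depleted, a log2 difference of 0.34 (95% interval -0.06 to 0.75, limma adjusted p 0.764). Its Macrophage-depleted libraries all lay above WT, at the lowest level of any member. Atg4d, at 633, 526 and 599 in WT and 522, 460 and 535 in Macrophage-depleted, differed by -0.21 (-0.44 to 0.01, adjusted p 0.696), and the groups overlapped. The libraries did not overlap for 2 genes above WT (Atg4c and Atg16l1; 8.51% of all genes) and 2 below (Ulk1 and Uvrag; 8.15% of all genes), together 10.5% of the 38 and 16.7% of all genes. Ulk1 was at 1535, 1591 and 1582 normalised counts in the WT libraries and at 1474, 1292 and 1355 in Macrophage-depleted (log2 difference -0.19, 95% interval -0.47 to 0.08, adjusted p 0.858). Uvrag, a partner of the lipid kinase complex, had 336, 361 and 348 in WT and 316, 327 and 314 in Macrophage-depleted (-0.13, -0.32 to 0.07, adjusted p 0.889).

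The mitophagy genes did not pass after depletion either. Pink1 was at 7711, 7466 and 7372 normalised counts in the WT libraries and at 7908, 6194 and 7312 in Macrophage-depleted, so the lowest and the highest of these 6 values were both in the depleted group. Its log2 difference was -0.08 (95% interval -0.29 to 0.13, adjusted p 0.963). Bnip3l differed by -0.02 (-0.19 to 0.15) and Fundc1, another receptor on the outer mitochondrial membrane, by -0.02 (-0.24 to 0.20). Sqstm1 ranged from 3489 to 4611 in WT and from 4135 to 5457 in Macrophage-depleted, an overlapping difference of 0.25 (-0.04 to 0.55, adjusted p 0.766).

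**Figure D3:**
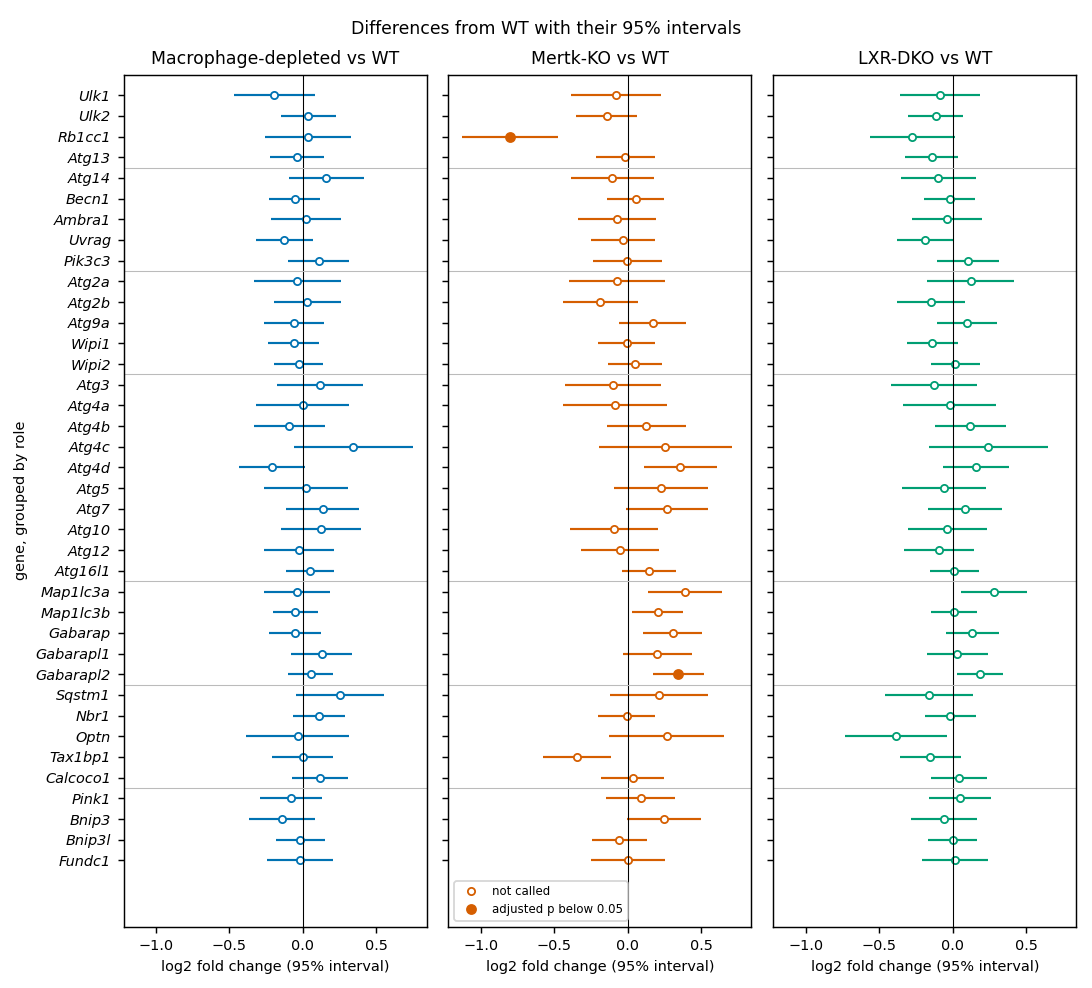
Log2 fold change (x axis) of each of the 38 genes (y axis, grouped by role) from WT in the 3 perturbed groups, with 95% intervals as bars; filled points passed the limma threshold of adjusted p below 0.05. The filled points are Rb1cc1 at -0.80 and Gabarapl2 at 0.34, both in Mertk-KO.

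In Mertk-KO, 1 gene fell and 1 rose against WT: Rb1cc1 and Gabarapl2. That is 5.26% of the 38, where 9.27% of all genes passed the threshold, 5.89% lower and 3.38% higher. The same WT libraries serve as the control for every group, so the 3 comparisons with WT are not independent of each other. Libraries did not overlap for 13 genes above WT (21.4% of all genes) and 3 below (21.1% of all genes), together 42.1% of the 38 and 42.6% of all genes. The median absolute difference was 0.12 for the 38 and 0.23 for all genes on the log2 scale.

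Rb1cc1 (ENSMUSG00000025907, chromosome 1, 6206197 to 6276648 of GRCm38, plus strand), also known as FIP200, is the scaffold of the kinase complex that starts autophagy. It had 1132, 1209 and 1130 normalised counts in WT, 1172, 1237 and 1145 in Macrophage-depleted, 533 and 825 in Mertk-KO, and 959, 860 and 1058 in LXR-DKO. Both Mertk-KO libraries lay below all 9 others on this scale, and they differed from each other by more than any pair of libraries within another group. In TPM the separation was lost: Rb1cc1 had 14.6 and 30.4 in Mertk-KO and 29.3 to 33.2 in WT. Rb1cc1 fell by 0.80 on the log2 scale in Mertk-KO against WT (SE 0.15, limma adjusted p 0.0148). It no longer passed when WT 1 (adjusted p 0.0513), WT 2 (0.0566) or WT 3 (0.0571) was left out, nor in the TPM table (-0.53, adjusted p 0.178). Over its 22 alternatives the adjusted p ranged from 4.31e-05 to 0.194, and 14 passed. A minor antisense transcript, 4732440D04Rik, shares 558 exon bases with it at a mean of 47.6 normalised counts; the sources used here do not say whether counting used strand.

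With the trends of length and base composition (GC content) removed from each library, the Rb1cc1 difference was -0.19 (adjusted p 0.194). Its longest basic transcript has 7607 bases, the greatest length among the 38, and 39.1% GC. The other members of the kinase complex did not pass. Ulk1 had 1849 and 1190 normalised counts in Mertk-KO, the highest and the lowest of all 11 libraries, with a log2 difference of -0.08 (95% interval -0.39 to 0.23, adjusted p 0.745). Atg12, the ubiquitin-like partner of Atg5, was split in the same way, at 320 and 423 against 346 to 410 elsewhere. Such a split was seen in 2 of the 38 genes and in 4.53% of all genes.

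Gabarapl2 (ENSMUSG00000031950), also known as GATE-16, is an Atg8 protein of the GABARAP branch. It had 804, 889 and 803 normalised counts in WT, 869, 846 and 869 in Macrophage-depleted, 1050 and 1058 in Mertk-KO, and 930, 986 and 919 in LXR-DKO. Both Mertk-KO libraries were above all 9 others, and the LXR-DKO libraries lay between them and the rest. It rose by 0.34 in Mertk-KO against WT (SE 0.08, limma adjusted p 0.0278). It no longer passed when WT 1 (adjusted p 0.0828), WT 2 (0.0545) or WT 3 (0.0896) was left out, with a range of 0.0242 to 0.170 over its 22 alternatives, 13 of which passed. The pseudogene Gm3724 matches 349 bases of it at 99.4% identity, and at 6.70 TPM in WT and 3.37 in Mertk-KO it lay below Gabarapl2 itself, at 64.4 and 86.7; reads shared with it could be split between them.

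The other Atg8 genes lay in the same direction without passing. Map1lc3a was at 3677, 3341 and 3682 normalised counts in the WT libraries and at 4604 and 4727 in Mertk-KO (log2 difference 0.39, SE 0.12, adjusted p 0.0545). Gabarap had 1849, 1808 and 1798 in WT and 2217 and 2281 in Mertk-KO (0.31, SE 0.09, adjusted p 0.0563). Map1lc3b had 2556, 2597 and 2568 in WT and 3030 and 2893 in Mertk-KO (0.20, SE 0.08, adjusted p 0.118). In each of these genes both Mertk-KO libraries were above every WT library. Gabarapl1, at 1033, 1101 and 1000 in WT and 1315 and 1096 in Mertk-KO, was the exception, since 1 Mertk-KO library lay within the WT values (0.20, adjusted p 0.235).

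All 5 Atg8 differences from WT were thus above 0 in Mertk-KO, also under each of the 22 alternatives. Their median was 0.31 on the log2 scale, and 0.12 with the length and GC trends removed, where the median of all genes was -0.01 before removal. The summed TPM of the 5 genes was 1030 and 1044 in the Mertk-KO libraries, 835 to 856 in WT, 773 to 925 in Macrophage-depleted and 892 to 998 in LXR-DKO. Map1lc3a is the shortest of the 38, at 1112 bases with 63.1% GC, and the 5 Atg8 genes all have transcripts shorter than the median of the 38, 3272 bases.

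**Figure D4:**
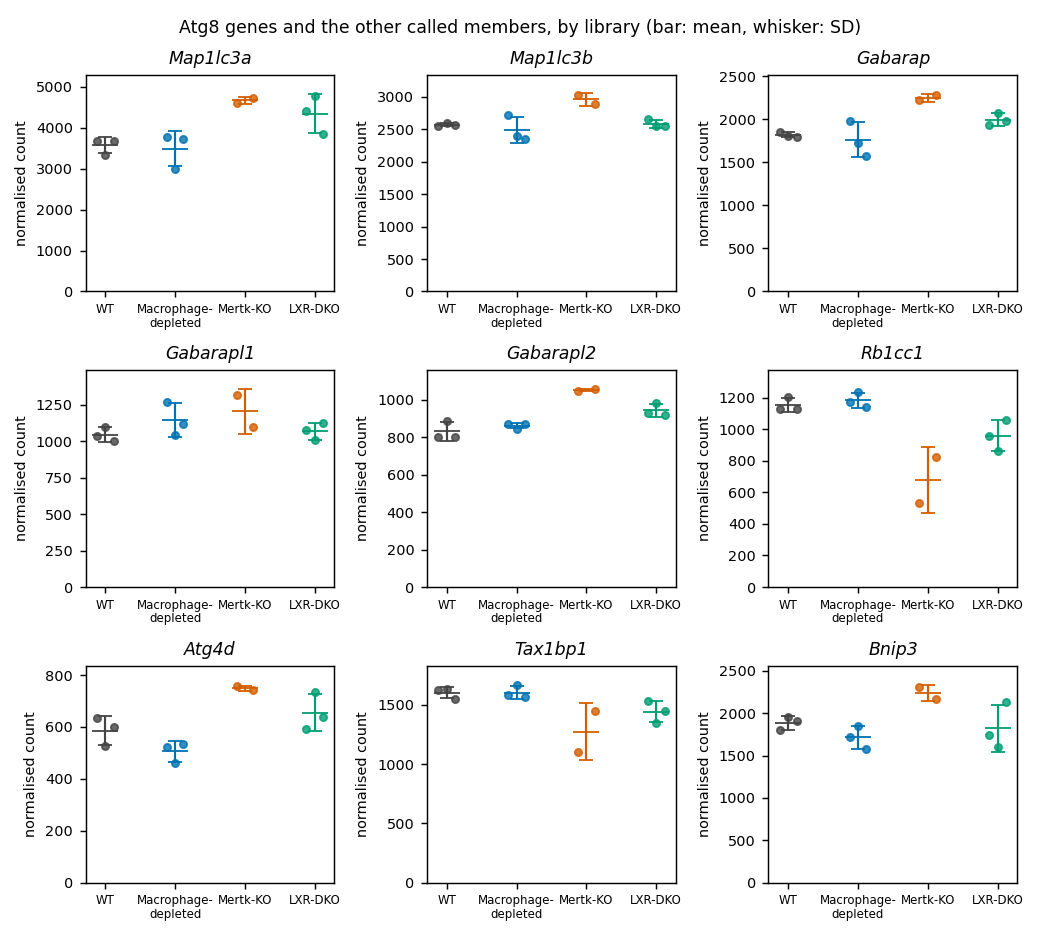
Normalised counts (linear axes from 0) of the 5 Atg8 genes and of Rb1cc1, Atg4d, Tax1bp1 and Bnip3, 1 point per library, with the mean as a bar and the SD as whiskers for each group (n = 3, and n = 2 for Mertk-KO). Both Mertk-KO points are above all 3 WT points in 4 of the 5 Atg8 panels, Gabarapl1 being the exception, and below them for Rb1cc1 and Tax1bp1.

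In the 38 genes as in the whole set, the Mertk-KO difference went with transcript length. Spearman's rho between length and the log2 difference was -0.45 over the 38 beside -0.44 over 13871 genes, as a description across genes that share libraries. Of the 19 shorter genes 13 were above WT, with a median of 0.20, and of the 19 longer ones 6, with a median of -0.03. With GC content rho was 0.33 over the 38 and 0.42 over all genes. In LXR-DKO against WT rho was -0.25 with length and 0.32 with GC content over the 38, and -0.34 and 0.28 over all genes. With both trends removed no gene of the 38 passed in Mertk-KO against WT, but the sizes moved unequally: Gabarapl2 was at 0.34 before and after (adjusted p 0.0595 after), whereas Rb1cc1 went from -0.80 to -0.19. Atg4d, at 5951 bases, was at 0.46 after removal (adjusted p 0.0664). With the length trend alone removed, Gabarapl2 was instead at 0.21 (limma adjusted p 0.141) and Rb1cc1 at -0.50 (adjusted p 0.116).

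**Figure D5:**
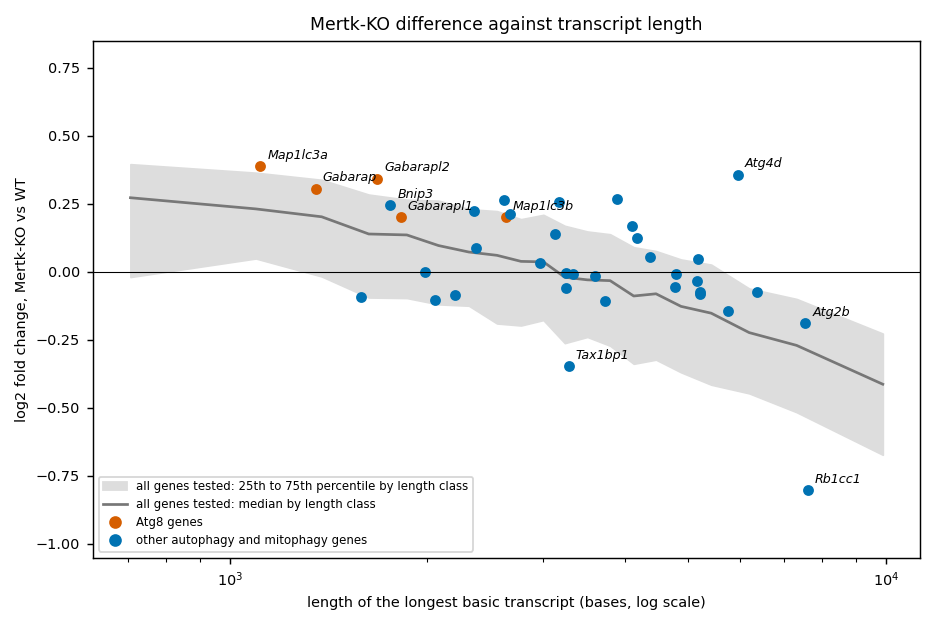
Log2 fold change of Mertk-KO against WT (y axis) by length of the longest basic transcript in bases (log x axis). Points are the 38 genes, with Atg8 genes in orange; the line and grey band are the median and the 25th to 75th percentiles of all genes tested by length class. The band slopes downward, from above 0 for short transcripts to below 0 for long ones. Rb1cc1, at 7607 bases and -0.80, lies below it, and Atg4d, at 5951 bases and 0.36, lies above it. The expressed transcript of a gene, Atg4d included, can be shorter than the length drawn.

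Among the cargo receptors, Tax1bp1, which links ubiquitinated cargo to Atg8 proteins, was at 1629, 1636 and 1546 normalised counts in the WT libraries and at 1103 and 1444 in Mertk-KO. Both Mertk-KO libraries were below WT, and the difference of -0.34 (SE 0.11, limma adjusted p 0.0607) did not pass. Without Mertk-KO 2 it was -0.54 with an adjusted p of 0.00168, so that the result rests on which of the 2 libraries is kept. Optn, or optineurin, a receptor that acts with Pink1 in mitophagy, had 1182, 1291 and 1080 in WT and 1428 and 1412 in Mertk-KO (0.27, adjusted p 0.357). Nbr1 and Calcoco1, at -0.01 and 0.03, were near 0.

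Of the lipid kinase complex, Becn1 (beclin 1), Pik3c3 (the kinase itself, VPS34), Atg14, Uvrag and Ambra1 differed by -0.11 to 0.05 in Mertk-KO, and each overlapped WT. The membrane supply and PI3P effector genes ranged from -0.19 for Atg2b to 0.17 for Atg9a, the membrane protein of the vesicles that seed the autophagosome. Wipi1 was at 1648, 1627 and 1562 normalised counts in the WT libraries and at 1648 and 1559 in Mertk-KO (-0.01, 95% interval -0.20 to 0.18), so its groups overlapped. Of the 10 conjugation enzymes, 6 had both Mertk-KO libraries above WT, as did 21.4% of all genes, among them Atg4d at 756 and 742 (0.36, SE 0.12, adjusted p 0.0685). Atg4d shares 1405 exon bases with the antisense gene Kri1, which had a mean of 161 normalised counts. Bnip3 had 1799, 1960 and 1903 in WT and 2305 and 2172 in Mertk-KO (0.25, SE 0.11, adjusted p 0.181), with no overlap.

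In LXR-DKO no gene of the 38 passed against WT, where 0.418% of all genes did; at an unadjusted p below 0.05 there were 3 of 38 and 1601 of 13884, and voom weights gave 0. Map1lc3a had 4411, 4776 and 3845 normalised counts in LXR-DKO, all above the WT maximum of 3682 (log2 difference 0.28, 95% interval 0.05 to 0.51, limma adjusted p 0.359). Gabarapl2 was likewise above WT in 3 of 3 libraries (0.18, 0.03 to 0.34, adjusted p 0.370). Optn had 787, 837 and 1120 in LXR-DKO and overlapped WT, whose lowest value was 1080 (-0.39, -0.74 to -0.04, adjusted p 0.398). Of the 5 Atg8 genes 5 were above the WT mean, but 3 of 5 in the TPM table, with the length trend removed and with the length and GC trends removed, and 4 of 5 without LXR-DKO 1 or LXR-DKO 3.

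The kinase complex that starts autophagy lay below the WT mean in 4 of 4 genes in LXR-DKO, with a median of -0.13 and 3 of the 4 not overlapping WT. This direction held under each of the 22 alternatives, with no gene called in any. Rb1cc1 differed by -0.27 (95% interval -0.57 to 0.02, adjusted p 0.463), but by -0.04 in the TPM table (adjusted p 0.947) and by -0.11 with the length and GC trends removed (adjusted p 0.650). Atg13, which joins the kinase to its scaffold, differed by -0.14 (-0.32 to 0.04, adjusted p 0.533), at 839, 769 and 759 normalised counts in the WT libraries and at 693, 725 and 722 in LXR-DKO. Atg13 lies 0.472 Mb from Nr1h3, the targeted gene for liver X receptor alpha on chromosome 2, and its neighbour Ambra1, 19.6 kb further on, differed by -0.04 (-0.28 to 0.20). The strain in which the alleles were made is not given in the labels, so DNA flanking the targeted locus and the loss of the receptors cannot be told apart for these 2 genes. Uvrag had 308, 303 and 306 in LXR-DKO, all below the WT minimum of 336 (-0.19, -0.38 to 0.01, adjusted p 0.455), and Wipi1 had 1476, 1352 and 1575, overlapping WT (-0.14, -0.31 to 0.03, adjusted p 0.526). Over the 38 genes, 3 lay apart above WT (12.0% of all genes) and 5 below (10.7% of all genes), together 21.1% of the 38 and 22.7% of all genes.

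Set directly against Mertk-KO, Macrophage-depleted hearts differed in 8 of the 38 genes, 21.1%, where 21.0% of all genes passed, 11.6% higher and 9.39% lower. Libraries of 44.7% of the 38 and of 45.4% of all genes did not overlap. Rb1cc1 and Tax1bp1 were higher in Macrophage-depleted, while 4 of the 5 Atg8 genes (Map1lc3a, Map1lc3b, Gabarap and Gabarapl2), Atg4d and Bnip3 were lower. Rb1cc1 was higher by 0.83 (SE 0.15, limma adjusted p 0.00553), and 18 of its 22 alternatives passed. The difference was 0.52 without Mertk-KO 1 (adjusted p 0.00949), 1.15 without Mertk-KO 2 (adjusted p 2.73e-05), 0.60 in the TPM table (adjusted p 0.0992) and 0.15 with the length and GC trends removed (adjusted p 0.226). Atg4d, at 522, 460 and 535 in Macrophage-depleted and 756 and 742 in Mertk-KO, differed by -0.57 (SE 0.12, limma adjusted p 0.00843). Of its 22 alternatives 19 passed, including the one with the length and GC trends removed (-0.68, limma adjusted p 0.00725). That removal relies on the length of the longest basic transcript of Atg4d, which need not be the expressed one.

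The Atg8 differences between these groups were smaller. Map1lc3a, at 3764, 2985 and 3714 in Macrophage-depleted, was lower by 0.43 on the log2 scale (SE 0.12, adjusted p 0.0244). Gabarap, at 1978, 1726 and 1575, differed by -0.36 (SE 0.09, adjusted p 0.0201), Gabarapl2 by -0.29 (SE 0.08, adjusted p 0.0246) and Map1lc3b, at 2721, 2397 and 2345, by -0.25 (SE 0.08, adjusted p 0.0406). In all of them the 2 groups did not overlap. Bnip3 had 1719, 1848 and 1574 in Macrophage-depleted against 2305 and 2172 (-0.39, SE 0.11, adjusted p 0.0340), and Tax1bp1 had 1581, 1664 and 1565 against 1103 and 1444 (0.34, SE 0.11, adjusted p 0.0392).

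These calls differed in how often they held: of 22 alternatives, Map1lc3a passed in 16, Gabarap in 15, Gabarapl2 in 14, Bnip3 in 12, Tax1bp1 in 8 and Map1lc3b in 7. With the length and GC trends removed none of these 6 passed. Map1lc3a was then at -0.12, Gabarap at -0.14, Map1lc3b at -0.12 and Tax1bp1 at 0.08 (limma adjusted p 0.319, 0.280, 0.285 and 0.491). Gabarapl2 was then at -0.29 (adjusted p 0.0512) and Bnip3 at -0.56 (adjusted p 0.05005). With the length trend alone removed, Gabarapl2 was at -0.13 and Bnip3 at -0.24 (limma adjusted p 0.254 and 0.236).

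The count of 8 was 3 without Macrophage-depleted 2 or without Macrophage-depleted 3, 5 without WT 3 or without Mertk-KO 1, and 10 without Mertk-KO 2. With the length and GC trends removed it was 2: Atg4d, the 1 that passed of the 8, and Becn1 (-0.32, adjusted p 0.0430), which was not among them. Without Mertk-KO 1, Tax1bp1 differed by 0.15 (adjusted p 0.278).

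Macrophage-depleted and LXR-DKO differed in none of the 38 genes, where 3.24% of all genes passed; 6 of 38 had an unadjusted p below 0.05, against 2851 of 13884 genes, and voom weights gave 0. The smallest adjusted p was that of Atg4d, lower in Macrophage-depleted than at the 593, 733 and 639 normalised counts of LXR-DKO (-0.37, 95% interval -0.59 to -0.15, limma adjusted p 0.0727). Sqstm1, at 5457, 4641 and 4135 in Macrophage-depleted and 3680, 3466 and 3444 in LXR-DKO, did not overlap (0.42, 0.12 to 0.72, adjusted p 0.113). Libraries of 28.9% of the 38 and of 28.3% of all genes did not overlap. Without either Mertk-KO library, which changes the shared spread, 3 genes passed in this comparison.

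Mertk-KO and LXR-DKO also differed in none of the 38, where 2.46% of all genes passed; 5 of 38 had an unadjusted p below 0.05, against 2908 of 13884, and voom weights gave 0. Optn was at 1428 and 1412 in Mertk-KO and 787, 837 and 1120 in LXR-DKO, without overlap (0.65, 95% interval 0.26 to 1.04, limma adjusted p 0.0717). Libraries of 26.3% of the 38 and of 31.5% of all genes did not overlap. Without Mertk-KO 2 the count was 4.

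Genes that surround this machinery were counted in 5 further lists. None of the 14 further autophagy genes, 15 fusion genes, 11 further mitophagy genes, 16 upstream kinase genes and 12 transcription factors tested passed in Macrophage-depleted or LXR-DKO against WT, where 0.238% and 0.418% of all genes did. In Mertk-KO, where 9.27% of all genes passed, so did 1 fusion gene, 1 further mitophagy gene, 2 upstream kinase genes and 4 transcription factors. Stx17, the SNARE protein through which autophagosomes fuse with lysosomes, fell by 0.42 (limma adjusted p 0.0223), from 545, 566 and 564 normalised counts in WT to 404 and 431. Tbk1, the kinase that activates optineurin, fell by 0.47 (adjusted p 0.0345). In LXR-DKO, Stx17 had 497, 454 and 521 and Tbk1 had 249, 232 and 258, also below every WT library, as were 10.7% of all genes. The same WT libraries serve both comparisons, so the 2 are not independent.

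Prkaa2, a catalytic subunit of the energy sensor AMPK, fell by 0.61 in Mertk-KO (adjusted p 0.0347), and Deptor, an inhibitor of the growth kinase mTOR, fell by 0.52 (adjusted p 0.0285). In LXR-DKO both were also below every one of the same WT libraries, as were 10.7% of all genes, without passing. Prkaa2 had 2139, 1901 and 2531 there, and Deptor 248, 237 and 265, beside 247 and 231 in Mertk-KO. Of the 12 transcription factors 2 rose and 2 fell, where 3.38% of all genes rose and 5.89% fell. Atf4, which drives the response to amino acid shortage, rose by 0.49 (adjusted p 0.0215), from 775, 671 and 802 to 1143 and 957, and Atf3 rose by 2.57 (adjusted p 0.00973), from 29.8, 29.7 and 80.7 to 296 and 213. Atf3 is also one of the 10 immediate early and handling genes, 5 of which were called higher in Mertk-KO; the part of tissue handling in these results was not tested. Mitf and Zkscan3, an activator and a repressor of lysosome and autophagy genes, fell by 0.34 (adjusted p 0.0327) and 0.38 (adjusted p 0.0477). Atf4, Atf3, Mitf and Zkscan3 overlapped WT in LXR-DKO. Results of the alternatives are not given for the genes of the further lists.

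Foxo3, a transcription factor that activates autophagy genes in muscle, had 1568, 1584 and 1652 normalised counts in Macrophage-depleted, above all 8 other libraries, which had 1016, 1221 and 1393 in WT, 1170 and 791 in Mertk-KO, and 995, 854 and 1013 in LXR-DKO. It was higher in Macrophage-depleted than in Mertk-KO by 0.73 (limma adjusted p 0.0111) and than in LXR-DKO by 0.75 (adjusted p 0.0167), and it did not pass against WT. Retreg1, a receptor for autophagy of the endoplasmic reticulum, was higher in Macrophage-depleted than in the same groups, by 0.57 (adjusted p 0.0168) and 0.53 (adjusted p 0.0421).

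Promoter sequence was examined for short motifs because several of these genes share a direction in Mertk-KO. RefSeq entries on GRCm38.p6 gave the 250 bases before the start site for 31 of the 38 genes (35 promoters). Atg16l1, Rb1cc1, Atg12, Bnip3l, Becn1, Map1lc3a and Pik3c3 had no entry in this table. The promoter of Gabarapl2, the gene that rose in Mertk-KO, and the stretch of the Bnip3 promoter with the same letters are shown 5′ to 3′ on the gene's strand, at chr8:111940453-111940702 (plus) and chr7:138909584-138909639 (minus). Capitals mark ACGTG read on either strand, the core letters to which hypoxia-inducible factor binds; in Bnip3, a classical target of that factor, both strands overlap as CACGTG.
Gabarapl2: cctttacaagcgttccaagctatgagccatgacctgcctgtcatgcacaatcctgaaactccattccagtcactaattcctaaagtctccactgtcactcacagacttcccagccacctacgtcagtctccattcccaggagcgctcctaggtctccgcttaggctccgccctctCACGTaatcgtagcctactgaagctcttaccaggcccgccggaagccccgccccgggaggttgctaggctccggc
Bnip3: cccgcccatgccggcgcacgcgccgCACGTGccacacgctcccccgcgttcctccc

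ACGTG was found on either strand in 12 of the 35 promoters (34.3%) and in 16.6% of all 32851 RefSeq promoters. Of the 6 called genes with an entry, 4 held it: Gabarapl2, Bnip3, Gabarap and Tax1bp1, of which the last lay in the opposite direction. The genes that held it were split in direction in Mertk-KO against WT. Atg2b, Atg3, Atg4a, Nbr1, Tax1bp1 and Uvrag lay below the WT mean, and Atg5, Atg7, Atg9a, Bnip3, Gabarap and Gabarapl2 above it. In Gabarap and Tax1bp1 the stretch around the match reaches into the span that GENCODE gives the gene, since the RefSeq start is further downstream. CACGTG, which also holds ACGTG and to which TFEB-family factors bind, was in 4 promoters (Atg3, Atg5, Atg7 and Bnip3), 11.4% against 6.02% of all. TTGTTTAC, a FoxO motif, was in none of the 35 and in 1.07% of all, and TGATGNAA, an Atf4 motif, was in none and in 3.45% of all. The promoters of the whole set were not limited to genes tested here or matched for base composition, so these shares do not test enrichment. The matches describe letters in the window and show no binding.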

How the data were processed

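RNA was extracted with Trizol from frozen hearts, amplified with the Ovation single-cell kit and made into Illumina libraries, per the labels' protocols. Tools named in the submitters' processing notes are kallisto 0.43.1, RSEM 1.2.20, CASAVA 1.8.2 and cutadapt, with the build GRCm38; their roles, the scaling and the use of strand are not given. The authors deposited 2 tables of signal per gene: a normalised count (estimated reads relative to an effective library size, plus 0.5 read in every gene, as the values themselves show) and a normalised TPM. Estimated reads were recovered by removing the added part and rescaled to the mean effective size of 15388737; they are not whole, so no count model was used. A mean of 10 normalised counts is worth 0.650 on the deposited scale. Depth was 10938600 to 20722295 estimated reads, and reads from amplified cDNA, lacking molecular identifiers, are not separate molecules.

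All 11 libraries entered 1 limma 3.58.1 model in R 4.3.3 (trend, two-sided, 7 residual degrees of freedom) on log2(normalised count + 1), which understates changes of low genes. It covered 13884 genes, with Benjamini-Hochberg adjustment over them in each of 6 comparisons and a threshold of 0.05. The steps were tested on simulated data. Lengths, GC content and positions came from GENCODE M21, using each gene's longest basic transcript, and near copies were searched at 97% identity over at least 100 bases. Values in every library were given for genes past the threshold in any comparison and for the gene with the smallest p of each role; Ulk1, Atg4c, Atg13, Optn, Pink1, Sqstm1, Gabarapl1 and Atg12 were added after their values were seen. From the further lists, genes past the threshold were named, not all of them. The 38 genes, their roles and the lists were chosen with earlier results of these data known. Alternatives changed the pseudocount, filter, scaling, table, samples fitted, weights, length and GC trends, replicate block and each library.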

Additional observations from a re-analysis of the deposited data

How the results depend on the processing

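No gene of the 38 passed the threshold in Macrophage-depleted against WT or LXR-DKO against WT under any of the 22 alternatives, the replicate block and leaving out each library included. In Mertk-KO against WT the count of 2 became 0 in the TPM table, with only the 2 groups in the model, with estimated library weights, with the length trend removed and with the length and GC trends removed. In Macrophage-depleted against Mertk-KO the count of 8 became 2 in the TPM table, 0 with only the 2 groups, 1 with library weights, 1 with the length trend removed and 2 with the length and GC trends removed. In Macrophage-depleted against LXR-DKO the count of 0 became 1 with only the 2 groups, 2 with library weights and 1 with the length trend removed. The cause of these moves was not tested. Fits of only 2 groups have fewer samples, and the removal of length and GC trends together was chosen after seeing the data. With the replicate block the counts were 1 in Mertk-KO against WT and 4 in Macrophage-depleted against Mertk-KO. The labels give no pairing, and same-numbered libraries correlated at -0.0937 to 0.107, so the number is not taken as a pair.

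Leaving out 1 library at a time gave 0 to 5 in Mertk-KO against WT (0 without each single WT library, 5 without Mertk-KO 2), 3 to 10 in Macrophage-depleted against Mertk-KO, 0 to 3 in Macrophage-depleted against LXR-DKO and 0 to 4 in Mertk-KO against LXR-DKO. Without a Mertk-KO library the lone other one is assumed to vary like the other groups. Over 836 repeats of the named genes' tests, 747 kept their side of the threshold, 84 lost and 5 gained a call. None changed direction among the called ones. The 747 include results that did not pass to begin with, so they do not measure how stable the calls are. All 84 losses fell on calls. In Macrophage-depleted against Mertk-KO, Atg4d kept its call in 19 repeats and lost it in 3, and Map1lc3b kept 7 and lost 15. In Mertk-KO against WT, Rb1cc1 kept 14 and lost 8, and Gabarapl2 kept 13 and lost 9. At this depth and n, the median half-width of a 95% interval was 0.22 on the log2 scale against WT for groups of 3 and 0.25 for Mertk-KO, so smaller differences are not resolved.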
